A study of Mastomys natalensis with 4 samples.

Results

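Splicing factors and RNA helicases were followed in gastric mucosa of the rodent Mastomys natalensis, in which endocrine tumours arise from the enterochromaffin-like (ECL) cells of the stomach. ECL cells store histamine and release it to stimulate acid secretion. Members were the probe sets of an Affymetrix mouse U74 array annotated with a single gene symbol that begins with Srsf, Sf3a, Sf3b, Hnrnp, Snrp, Prpf, U2af, or with Ddx or Dhx and a digit. They numbered 116 of 12488 probe sets and stood for 82 of the 8251 genes named by a single symbol. All animals had received loxitidine, an antagonist of histamine H2 receptors that blocks acid secretion, for 8 weeks in 2 samples (a stage labelled hyperplasia of ECL cells) and for 16 weeks in 2 samples (labelled neoplasia). The comparison is between treatment times that also differ in lesion stage, and mucosa without treatment was not analysed here. Age, sex and strain are not given in the labels. Nor do they say that a group's samples are separate animals, so the p-values below capture just the variation among these samples, which may be technical.

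Introns are removed from nuclear transcripts by the spliceosome, which is built from small nuclear ribonucleoproteins (snRNPs). In most of them a short RNA carries a ring of Sm proteins, with further proteins bound to it. SR proteins, which carry serine-arginine repeats, bind exons and recruit the splicing machinery, while heterogeneous nuclear ribonucleoproteins (hnRNPs) coat nascent transcripts and often oppose exon inclusion. DEAD-box and DEAH-box helicases, named after a motif in their ATPase core, unwind or remodel RNA at each step of splicing, in ribosome assembly and in the export, translation and storage of mRNA.

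The data were the authors' deposited intensities, in arbitrary units on a linear scale, 1 value per probe set and sample. The median intensity of the 4 arrays ranged from 15.4 to 19.2, and 55.3% to 62.4% of probe sets exceeded a floor of 12.15, the level under which values were treated as dim. The probes were designed on mouse sequence, so a Mastomys transcript may be present where its probe set is dim, and levels are compared only within a probe set. Parietal cell genes, which mark acid-secreting mucosa, summed to 7170 and 9210 over 5 genes at 8 weeks and to 7420 and 6640 at 16 weeks. Of the ECL cell and endocrine markers 5 of 6 were measured, and histidine decarboxylase, which makes histamine, did not reach the filter. The 5 summed to 397 and 467 at 8 weeks and to 597 and 542 at 16 weeks, 4 of them higher and 3 without overlap, with a median difference of 0.51. Of all tested probe sets 56.3% were higher at 16 weeks and 28.7% were higher without overlap. The bacterial hybridisation controls had geometric means of 439 and 416 in the 8-week samples against 316 and 278 in the 16-week samples, and the ratio of the 3' to the 5' actin probe set was 1.26 and 1.16 against 1.46 and 1.63. The same ratio for Gapdh was 0.714 and 0.589 against 0.891 and 0.647, with overlapping groups. The controls, the actin ratio and the ECL cell markers moved with the groups, and their part in the results was not tested. In whole mucosa fewer cells of a type and less RNA per cell cannot be told apart.

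Of the 116 members 88, from 71 genes, exceeded the floor on 2 or more arrays and were tested. The other 28 did not, 17 of them on no array and 11 on a single array. They left 11 genes without a tested probe set, Ddx4, Ddx49, Ddx51, Ddx52, Ddx54, Dhx32, Hnrnpc, Hnrnph2, Prpf39, Sf3b2 and Snrpg. All differences below are log2 differences, 16 minus 8 weeks, with values under the floor set to it and a standard error (SE) from limma with n = 2 samples per group. A fold is a lower bound where neither sample of a group exceeded the floor.

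None of the 88 tested members passed limma's test at a Benjamini-Hochberg adjusted p of 0.05, and neither did any other probe set (0.00% of 7883, over which p was adjusted). The smallest adjusted p among members was 0.301. At an unadjusted p under 0.05 there were 6 members, 6.82% of those tested, against 14.0% of all tested probe sets. Of the 88 tested members 4 were higher at 16 weeks at that p, a smaller share than the 8.08% of all tested probe sets. Another 2 of the 88 were lower, again a smaller share than the 5.87% of all tested. Ddx10, among the higher ones, lay under the floor in both 8-week samples and passed the filter only through the 16-week group. The mean was lower at 16 weeks for 48 members (54.5%, against 43.7% of all tested) and higher for 40 (45.5%, against 56.3%). The groups did not overlap for 39 members (44.3%, against 49.3% of all), with 23 lower (26.1%, background 20.6%) and 16 higher (18.2%, background 28.7%). The median difference of members was -0.06, beside 0.09 for all tested probe sets, and differences ran from -1.52 to 1.25. Only 4 members differed by more than 1 on the log2 scale, Sf3b6, Hnrnpk, Snrpe and Ddx46.

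The sign of the members' median depended on the scale of the arrays. It was -0.05 after quantile normalization (43 higher, 50 lower) and -0.27 with arrays set to a common median (32 higher, 60 lower), but 0.45 with the arrays aligned on the hybridisation controls (72 higher, 16 lower). The median of all tested probe sets moved with it, to 0.02, -0.11 and 0.54. Relative to that median the members lay at -0.14 on the deposited scale and at -0.08, -0.16 and -0.08 under the alternatives. With a sample left out the members' median was 0.05 without 8-week sample 2, 0.04 without 16-week sample 2, -0.18 without 8-week sample 1 and -0.17 without 16-week sample 1, so its sign depended on which sample was left out.

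**Figure D1:**
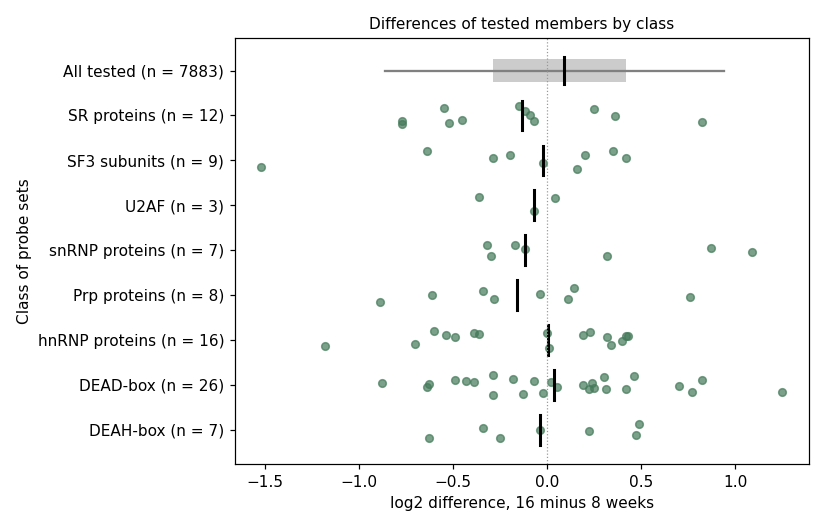
Log2 difference (16 minus 8 weeks, horizontal axis) of each tested member by class, each point a probe set and the black line the median of the class. The top row shows all 7883 tested probe sets, with the median, a box from the 25th to the 75th percentile (-0.29 to 0.42) and a line from the 5th to the 95th (-0.86 to 0.94); most members lie within that line.

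On the deposited scale the direction of members varied with the brightness of the probe set, as it did for probe sets in general. All tested probe sets were divided by mean log2 intensity into tertiles, with boundaries at intensities of 23 and 56.2. In the bright tertile 28 of 38 members had the lower mean at 16 weeks and the median was -0.29, beside 56.5% lower and a median of -0.08 for all probe sets of that tertile. In the middle tertile 12 of 25 members were lower, with a median of 0.04 (0.14 for all). In the dim tertile 17 of 25 were higher, with a median of 0.30 (0.20 for all). Of these dim members 4 lay under the floor in both 8-week samples and 1 in both 16-week samples, so they passed the filter only through the group where they were high. Leaving out such probe sets, a step chosen after seeing the data, 13 of 20 dim members were higher, with a median of 0.19, beside 63.3% and 0.15 for all. The bright members' median was -0.26 after quantile normalization (all: 0.01), -0.51 on a common median (all: -0.30) and 0.24 on the hybridisation controls (all: 0.45), so its sign flipped in the last while it stayed below that of the tertile as a whole. In the dim and middle tertiles the medians of all probe sets after quantile normalization were 0.05 and 0.01, so the general trend was nearly absent. Those of members were 0.13 and -0.05. On the hybridisation controls the dim and middle medians were 0.57 and 0.66 for all, and 0.67 and 0.57 for members.

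**Figure D2:**
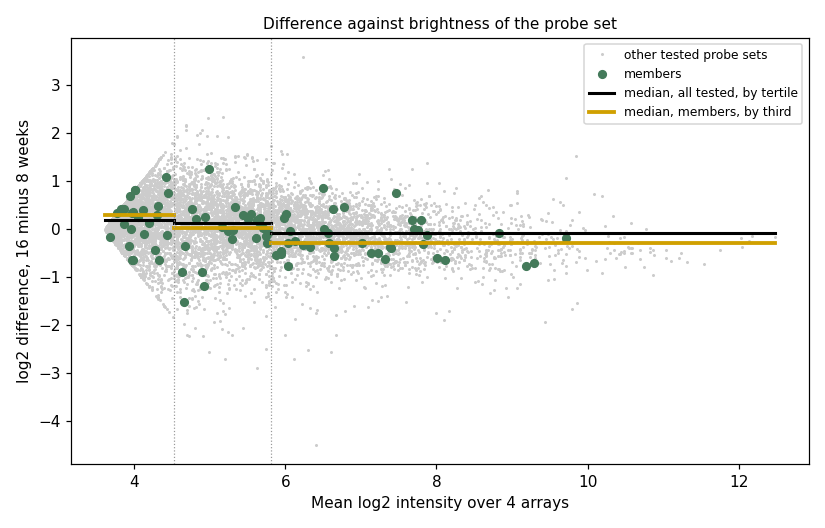
Log2 difference (16 minus 8 weeks) against mean log2 intensity over the 4 arrays for members (green) and other tested probe sets (grey), with medians for each tertile of brightness divided at the dotted lines. The members' median (yellow) goes from 0.30 in the dim tertile to -0.29 in the bright tertile, that of all tested probe sets (black) from 0.20 to -0.08.

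Among SR proteins 9 of 12 tested probe sets, from 9 genes, had a lower mean at 16 weeks (75%, against 43.7% of all tested). Of these 9 lower probe sets 7 lay in the bright tertile, where 56.5% of all probe sets were lower. The median difference of the 12 was -0.14. The median was -0.33 after quantile normalization and on a common median, and 0.41 on the hybridisation controls. It was -0.45, with 8 of 9 lower, both for probe sets above the floor on all 4 arrays and with the floor at the 50th percentile. Without a sample it was -0.06 (16-week sample 2), -0.19 (8-week sample 1), -0.26 (16-week sample 1) and -0.29 (8-week sample 2). Srsf2 (SC35), an SR protein of nuclear speckles, read 814 and 712 in the 8-week samples against 592 and 335 in the 16-week samples on its brighter probe set. Both 16-week samples lay below both 8-week samples, and 16-week sample 2 was far below the rest, giving -0.77 ± 0.35 (SE). Its other probe set read 106 and 140 against 83.2 and 82.9, again without overlap (-0.55 ± 0.26). On both probe sets Srsf2 was lower, and the IDs of both mark probes shared with other transcripts. Srsf1 (SF2/ASF), which promotes use of nearby splice sites, read 71.6 and 101 against 47.6 and 52.5 on 1 probe set (-0.77 ± 0.28, unadjusted p = 0.0406, limma adjusted p = 0.349). A dimmer Srsf1 probe set read 2.6 and 4.8 against 16.3 and 28.3, which is at least 1.77-fold higher. The remaining tested one, at 14.3 and 12.7 against 11.3 and 4.4, gave -0.15 ± 0.24 from values near or under the floor. A further Srsf1 probe set, at 5.8 and 13.4 against 2.9 and 3.1, did not reach the filter. The 3 tested Srsf1 probe sets therefore do not give the gene a direction. Srsf5, one of the brighter SR probe sets, read 233 and 256 against 237 and 213 (-0.12 ± 0.24), with overlapping groups. Srsf6 read 67.5 and 79.5 against 67.5 and 38.8 (-0.52 ± 0.35). Srsf11 read 69.3 and 74.1 against 76.5 and 36.2 (-0.45 ± 0.41). In both, 16-week sample 2 alone was low. Srsf3, Srsf4, Srsf9 and Srsf10 gave differences between -0.09 and 0.36.

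The SF3 complexes sit in the U2 snRNP, which recognises the branch point of the intron. Sf3b6 (p14), the subunit that contacts the branch point adenosine, had the smallest p of all members. It read 43 and 42.6 in the 8-week samples against 18.4 and 11.9 in the 16-week samples, with 16-week sample 2 just under the floor. The 8-week samples were nearly equal and the groups were well apart, with a difference of -1.52 ± 0.30, which is 2.86-fold (unadjusted p = 0.00357, limma adjusted p = 0.301). The difference kept its sign under each scaling, from -1.71 on a common median to -1.0 on the hybridisation controls, and lay between -1.82 and -1.22 with a sample left out. No other SF3 subunit differed as much. Sf3b1, the largest subunit of SF3B and a gene often mutated in cancer, read 68.2 and 77.6 against 55.8 and 63.2 (-0.29 ± 0.24). Another Sf3b1 probe set read 38.6 and 45.4 against 34.8 and 38.2 (-0.20 ± 0.24). Both were lower without overlap, by amounts close to their SE. Sf3a2 read 356 and 336 against 318 and 154 on 1 probe set (-0.64 ± 0.40) and 173 and 248 against 250 and 226 on the other (0.20 ± 0.29). The IDs mark the former as designed under relaxed rules and the latter as matching a family of sequences. Sf3a1 read 27.6 and 20 against 27.9 and 35.4 (0.42 ± 0.29), Sf3a3 41.3 and 38.8 against 38.1 and 40.8 (-0.02 ± 0.23). Sf3b3 and Sf3b5, further subunits of SF3B, gave 0.16 ± 0.37 and 0.35 ± 0.29. Of the 9 tested SF3 probe sets 5 were lower, the median was -0.02, and it was -0.24 on a common median, 0.51 on the hybridisation controls, -0.28 without 8-week sample 1 and 0.03 without 16-week sample 1.

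U2AF, the heterodimer that marks the end of the intron for U2, showed no difference beyond its spread. Its large subunit U2af2 read 430 and 510 in the 8-week samples against 505 and 393 in the 16-week samples (-0.07 ± 0.27), so each group held a high and a low sample. The small subunit U2af1 read 101 and 81.3 against 92.5 and 53.7 (-0.36 ± 0.35), and its relative U2af1l4 read 45 and 58.7 against 69.1 and 40.5 (0.04 ± 0.35). In all 3 U2AF probe sets 16-week sample 2 read the lower of the 16-week samples and of all 4.

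Proteins of the snRNPs held both directions, with 3 of 7 tested probe sets higher and a median of -0.12. That median was -0.01 after quantile normalization, -0.37 on a common median, 0.41 on the hybridisation controls, 0.09 without 8-week sample 2 and 0.08 without 16-week sample 2. In the Sm ring, Snrpe read 12 and 17.6 against 32.3 and 30.2, higher in both 16-week samples (1.09 ± 0.29, unadjusted p = 0.0119, limma adjusted p = 0.309). Snrpb, which encodes the SmB proteins and was the brightest member, read 867 and 921 against 756 and 832, a small shift without overlap (-0.17 ± 0.23). Snrpd3 read 88.1 and 80.3 against 80.6 and 56 (-0.32 ± 0.29). The ring proteins assemble together in cells, and here 1 of the 3 tested was higher and 2 were lower. Snrpg did not reach the filter, at 17.3 and 11.9 against 6.9 and 5.8. Of the proteins particular to U2, Snrpb2 read 50.7 and 88.3 against 111 and 134 (0.87 ± 0.35), and Snrpa1 read 18.7 and 27.4 against 23.9 and 18.1 (-0.12 ± 0.31). Snrpc of the U1 snRNP, which helps to bind the start of the intron, read 67.6 and 49.1 against 70 and 73.5 (0.32 ± 0.27). A probe set annotated to the pseudogene Snrp1c-ps2 read 243 and 258 against 198 and 211 (-0.30 ± 0.23), and the ID marks it as matching a family of sequences. The Snrpe probe set carries the same mark, and those of Snrpb and Snrpb2 were designed under relaxed rules.

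Prp proteins, named after yeast mutants in precursor RNA processing, act in the tri-snRNP and in the activation of the spliceosome. Of 8 tested probe sets 5 were lower and the median was -0.16, which became 0.33 on the hybridisation controls and 0.05 without 8-week sample 2. Prpf8, the scaffold at the catalytic centre, read 61.9 and 74.5 against 72.7 and 59.9 (-0.04 ± 0.26). Prpf6, which bridges the tri-snRNP, read 116 and 174 against 130 and 105 (-0.28 ± 0.31). Neither of these core proteins had groups apart. Prpf31, a tri-snRNP protein mutated in a form of retinitis pigmentosa, read 38.5 and 42.9 against 38.3 and 12.5. Its difference of -0.89 ± 0.56 came from 16-week sample 2, and without that sample it was -0.09. Prpf19, a ubiquitin ligase of the activated spliceosome, read 158 and 248 against 157 and 108 on 1 probe set (-0.61 ± 0.35) and 23.1 and 12.1 against 28.8 and 27.9 on the other (0.76 ± 0.37). Those 2 Prpf19 probe sets pointed in opposite directions, each without overlap, and the ID of the dimmer one marks it as matching a family of sequences. The remaining Prp probe sets, of Prpf38a, Prpf38b and the kinase Prpf4b, gave 0.11, -0.34 and 0.14.

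Among hnRNP proteins 9 of 16 tested probe sets were higher and 7 lower, and the median was 0.01 (-0.04 on a common median, 0.44 on the hybridisation controls). With only probe sets above the floor on all 4 arrays, or with the floor at the 50th percentile, 7 of 11 were lower and the median was -0.39. Without a sample it was -0.20 (8-week sample 1), 0.04 (8-week sample 2), -0.32 (16-week sample 1) and -0.03 (16-week sample 2). The 2 brightest were lower. Hnrnpa2b1, an abundant protein of nuclear hnRNP particles, read 747 and 860 against 647 and 374 (-0.70 ± 0.34). Hnrnpl, which binds CA-rich RNA, read 339 and 297 against 237 and 186 (-0.60 ± 0.26). Hnrnpm read 171 and 162 against 122 and 116 (-0.49 ± 0.23). In each the groups did not overlap, and the samples of a group lay close for Hnrnpm, while 16-week sample 2 stood low for Hnrnpa2b1. A further Hnrnpa2b1 probe set, at 10.5 and 6.8 against 11.8 and 18, did not reach the filter. On the hybridisation controls the differences were -0.18 for Hnrnpa2b1, -0.07 for Hnrnpl and 0.04 for Hnrnpm, so the sign of Hnrnpm flipped. Hnrnpk, a KH-domain protein that binds C-rich RNA and DNA, read 57.9 and 36 against 32.9 and 12.4. Its difference was -1.18 ± 0.54, and it lay between -1.88 and -0.47 with a sample left out. Hnrnpll, the Hnrnpl-like regulator of splicing in lymphocytes, read 57.2 and 87.1 against 49.9 and 47 (-0.54 ± 0.30). Both thus had groups apart but an uneven spread within a group. Hnrnpd (AUF1), which binds AU-rich elements, gave -0.36 ± 0.31, and Hnrnph1, which binds G-rich runs, -0.39 ± 0.30.

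Of the 9 hnRNP probe sets that were higher, 5 lay in the dim tertile. Hnrnpu, a scaffold protein of the nucleus, read 13.2 and 10 against 16.4 and 17.4 (0.42 ± 0.23), with a further Hnrnpu probe set not reaching the filter. Hnrnpa1, a repressor of exon inclusion, read 3.4 and 6.6 against 14.4 and 16.4, at least 1.26-fold higher. Hnrnpul2, a relative of Hnrnpu, read 48 and 36.5 against 54.9 and 49.6 (0.32 ± 0.26). Its dimmer probe set read 16 and 15 against 20.1 and 4 (0.01 ± 0.32). Hnrnpr read 80.9 and 103 against 87.3 and 95.7, with a difference of 0.00 ± 0.26. Hnrnph3, Hnrnpab and the 2 probe sets of Hnrnpdl gave between 0.19 and 0.43, with overlapping groups.

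**Figure D3:**
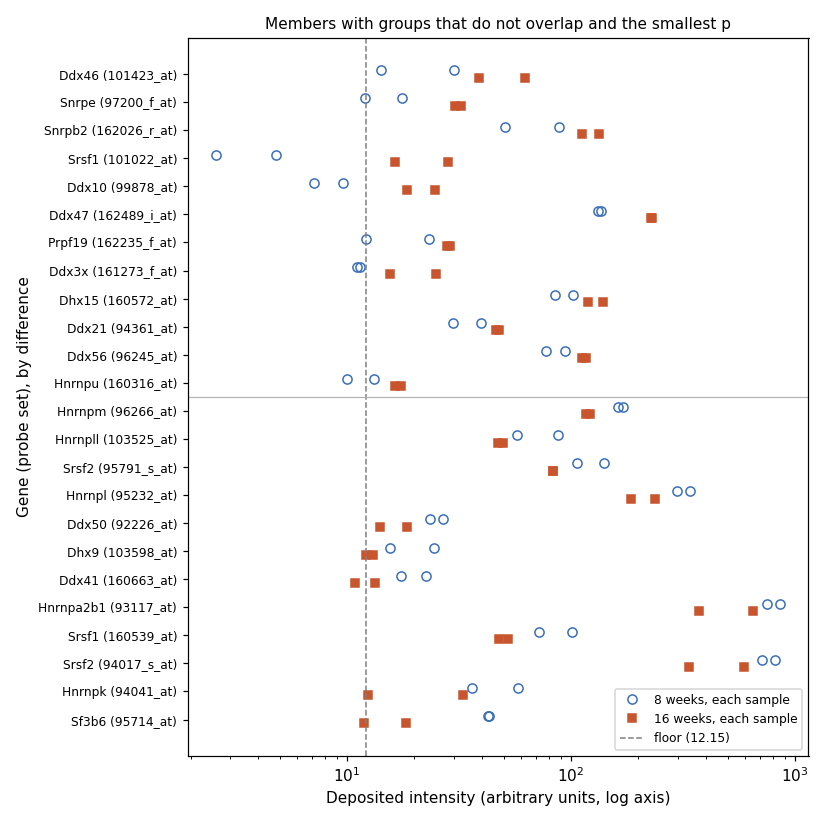
Deposited intensity (log axis, arbitrary units) in each sample at 8 weeks (open circles) and 16 weeks (squares) for the 12 members per direction with the smallest p among those whose groups do not overlap; the dashed line is the floor of 12.15. Members above the grey line were higher at 16 weeks, led by Ddx46 at 1.25, and those below it were lower, ending with Sf3b6 at -1.52.

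The helicases, 26 DEAD-box and 7 DEAH-box probe sets tested, had medians of 0.04 and -0.04. On the common median these were -0.19 and -0.27, and on the hybridisation controls 0.55 and 0.48. Neither sign held when a sample was left out: the DEAD-box median ranged from -0.09 to 0.10, at the removal of 8-week sample 1 and of 8-week sample 2, and the DEAH-box median from -0.29 without 8-week sample 1 to 0.16 without 8-week sample 2. With the floor at the 50th percentile, or only probe sets above the floor on all 4 arrays, the DEAH-box median was 0.22 over 5 probe sets. The helicases were sorted by their known roles after their values had been seen. Nucleolar helicases, which serve ribosome assembly, were higher on 7 of 11 tested probe sets (63.6%), beside 56.3% of all tested, with a median of 0.30 (0.16, 0.08 and 0.79 under the scaling alternatives). The 11 came from 8 of 12 genes, 1 of the 7 (Ddx10) passed the filter only through the 16-week group, and the share is near the background. Ddx47, a helicase of ribosomal RNA processing, read 137 and 132 in the 8-week samples against 231 and 228 in the 16-week samples. The samples of each group were nearly equal and the groups were well apart (0.77 ± 0.23, 1.71-fold, unadjusted p = 0.0197, limma adjusted p = 0.326). That probe set is marked as incomplete, and a second one for Ddx47 did not reach the filter. Ddx10 read 7.1 and 9.6 against 24.7 and 18.5, at least 1.76-fold higher. Ddx21, a nucleolar helicase that also acts on RNA polymerase II genes, read 29.7 and 39.7 against 46.3 and 47.9 (0.46 ± 0.26). Ddx56 read 77.5 and 94.3 against 111 and 117 (0.42 ± 0.25). These 4 of the 11 nucleolar probe sets were higher without overlap between the groups (36.4%, against 28.7% of all tested). They include Ddx10, which passed the filter only through the 16-week group. On 11 probe sets sorted after their values were seen, that share is not read as an excess. Of the 11, 1 was lower without overlap (9.09%, against 20.6%). Ddx18 went the other way, at 27.5 and 41.2 against 27.6 and 10.5 (-0.88 ± 0.47). Its second probe set read 26.3 and 19.2 against 6.1 and 23 (-0.43 ± 0.40), each with 1 of the 16-week samples low. Ddx50, the paralog of Ddx21, read 26.7 and 23.5 against 14.1 and 18.5 on 1 probe set (-0.63 ± 0.27) and 43.9 and 34.7 against 58.1 and 40.4 on another (0.31 ± 0.30). Ddx24 gave 0.24 ± 0.37.

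Helicases of the spliceosome itself were split. Ddx46 (Prp5), which remodels U2 as it joins the branch point, had the largest difference of all members that were higher. It read 14.2 and 30 against 38.9 and 62.3, with groups apart and both groups wide (1.25 ± 0.46, unadjusted p = 0.0413, limma adjusted p = 0.349). With a sample left out the difference lay between 0.71 and 1.79. Dhx15 (Prp43), which takes the spliceosome apart after splicing, read 102 and 84.7 against 138 and 119 (0.47 ± 0.25), again without overlap. Ddx41 read 17.5 and 22.5 against 10.9 and 13.3 (-0.64 ± 0.26), and Dhx16 read 24 and 28.6 against 36.6 and 25.3 (0.22 ± 0.29). Ddx39b (UAP56), which links splicing to mRNA export, was bright and level, at 226 and 211 against 230 and 201 (-0.02 ± 0.24). The nuclear cofactors Ddx5 (p68) and Ddx17 (p72) gave -0.13 ± 0.35 and -0.07 ± 0.24. Dhx9 (RNA helicase A) read 15.6 and 24.4 against 13 and 12.1, near the floor at 16 weeks (-0.63 ± 0.31).

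Cytoplasmic and other helicases had 7 of 14 tested probe sets higher and a median of -0.01, which was 0.52 on the hybridisation controls. Ddx3x, a helicase of translation initiation, read 201 and 212 against 165 and 265 on its brightest probe set (0.02 ± 0.32), with the 16-week samples on either side of the 8-week ones. Ddx6, which represses translation and is a component of P-bodies, read 151 and 206 against 136 and 115 (-0.49 ± 0.28). On 2 other Ddx6 probe sets the difference was 0.19 ± 0.32 and -0.29 ± 0.34. Ddx19b, which releases mRNA at the nuclear pore, gave 0.22 ± 0.29. Dhx36, which unwinds G-quadruplexes, gave 0.49 ± 0.38. Dhx30, which acts in mitochondrial ribosome assembly, read 63.3 and 92.1 against 78.7 and 52.1 (-0.25 ± 0.34), and Dhx40 gave -0.04 ± 0.27. Apart from the single Ddx6 probe set and a dim one of Ddx3x, none of these had groups that did not overlap. The germ cell helicase Ddx4 did not reach the filter, whereas Ddx25, also known from testis, read 29.7 and 41.7 against 24.9 and 53.6 (0.05 ± 0.44).

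Where a gene had several tested probe sets they often disagreed. Of 14 such genes, with 31 probe sets, 6 had differences of the same sign and 8 of opposite signs. Among the 8, only Srsf1 and Ddx50 had opposite signs between probe sets without a mark in the ID. In Ddx1, Ddx27, Ddx3x, Ddx6, Prpf19 and Sf3a2 the disagreement involved a probe set marked as shared, matching a family or designed under relaxed rules. The distance between a gene's highest and lowest difference had a median of 0.51 and was widest for Srsf1 (1.59), Prpf19 (1.37) and Ddx3x (1.09). For Ddx3x the 3 probe sets gave 0.02 ± 0.32, -0.39 ± 0.36 and, from 11.1 and 11.4 against 15.5 and 25, at least 1.62-fold higher. Ddx1 gave -0.29 ± 0.29 and 0.25 ± 0.33, and Ddx27 -0.18 ± 0.34 and 0.30 ± 0.43. Genes whose probe sets shared a sign were Ddx18, Dhx30, Hnrnpdl, Hnrnpul2, Sf3b1 and Srsf2. Of these only Srsf2 and Sf3b1 were without overlap on both probe sets. Taking the brightest tested probe set of each gene, 40 of 71 genes were lower and the median was -0.07.

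**Figure D4:**
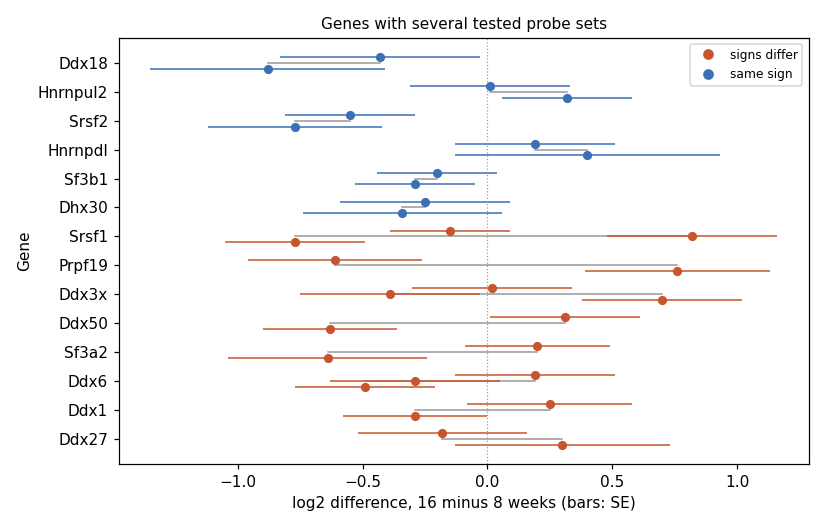
Log2 difference (16 minus 8 weeks) with SE for each tested probe set of the 14 member genes that had several. The 8 genes in orange have probe sets on both sides of 0, the 6 in blue do not.

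Samples of a group also differed from each other. Members were lower in 16-week sample 2 than in 16-week sample 1 on 55 of 88 probe sets (62.5%, against 54.6% of all tested), with a median log2 ratio of -0.15 (all: -0.05). They were lower in 8-week sample 1 than in 8-week sample 2 on 55 as well (62.5%, against 61.4%), with a median of -0.22 (all: -0.14). In the bright tertile 27 of 38 members (71.1%) were lower in 16-week sample 2, beside 62.9% of all tested probe sets there. For 8-week sample 1 the shares in that tertile were 71.1% of members and 69.6% of all. The median size of the members' difference within a group was 0.33 at 8 weeks and 0.37 at 16 weeks, beside 0.34 between the groups. The values within a group compare single samples and the value between the groups compares means of 2 samples, so their sizes are not directly comparable. For all tested probe sets the corresponding medians were 0.32 at 8 weeks, 0.32 at 16 weeks and 0.36 between the groups. The lowest reading of all 4 fell in 16-week sample 2 for 38 members (43.2%, against 27.5% of all tested). In 8-week sample 1 it fell for 26 (29.5%, against 40.1%). These shares of lowest readings were not matched for brightness. The 6 members at least 2-fold lower in 16-week sample 2 than in 16-week sample 1 were Prpf31, Hnrnpdl on 1 probe set, Hnrnpk, Ddx18 on 1 probe set, Srsf11 and Sf3a2 on 1 probe set.

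**Figure D5:**
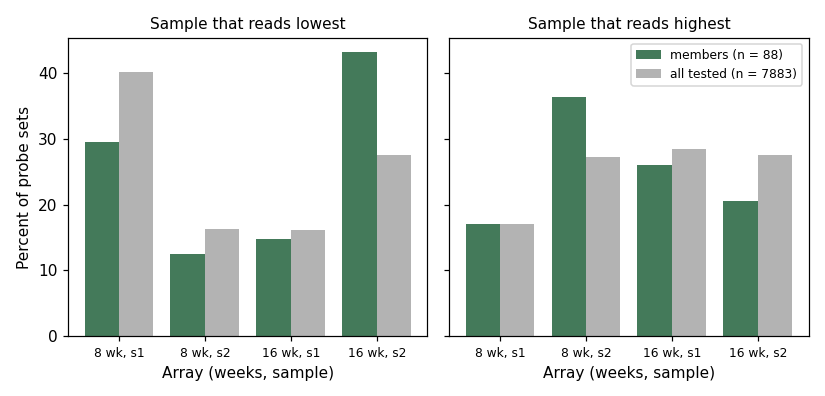
Percent of probe sets for which each of the 4 arrays (weeks of treatment and sample number) gave the lowest (left) or highest (right) intensity, for the 88 tested members and all 7883 tested probe sets. The 16-week sample 2 read lowest for 43.2% of members and 27.5% of all, without matching for brightness.

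Summed markers of several cell types also lay apart between the groups. Smooth muscle markers were lower on 6 of 7 genes, summing to 3330 and 2860 in the 8-week samples against 1750 and 1680 later. Markers of dividing cells were lower on 3 of 4 tested genes, with sums of 130 and 139 against 102 and 93.3, while Top2a and Pcna did not reach the filter. Lymphocyte markers were higher on all 4 tested T and NK cell genes (69.2 and 60.8 against 111 and 125) and on all 4 tested B cell genes (134 and 175 against 201 and 223). Intestinal markers were lower on all 4 tested genes, at 1080 and 194 against 116 and 118, with 8-week sample 1 apart. Surface and neck mucous markers were lower on 3 of 4 tested genes, at 5280 and 5430 against 4570 and 4380, and the antral hormones gastrin and somatostatin on both, at 493 and 337 against 158 and 205. Pancreatic acinar markers summed to 1950 and 524 against 1500 and 3760, unevenly in both groups. For comparison, 56.3% of all tested probe sets were higher at 16 weeks and 43.7% lower. The part of these cell types in the members' values was not tested.

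Other genes of RNA processing, 93 named in a list of splicing, RNA-binding and mRNA-processing genes outside the member families, gave a similar picture. Of 74 on the array 62 had a tested probe set, and each gene was read on its brightest tested one only. None passed limma's test over all probe sets, and 4 had an unadjusted p under 0.05 (6.45%, against 14.0% of all tested). At 16 weeks 29 were higher and 33 lower, with a median of -0.08, and 53 were higher on the hybridisation controls. Members read the same way had 31 of 71 genes higher and 40 lower, with a median of -0.07. Of those 71 genes 8.45% had an unadjusted limma p under 0.05. Bcas2, a partner of Prpf19 in the activated spliceosome, read 4 and 15.1 against 41 and 34.2 (1.47 ± 0.26, unadjusted p = 0.00242, limma adjusted p = 0.301). Rbmx, an hnRNP-like splicing regulator, read 15.7 and 15 against 36.6 and 28.1 (1.06 ± 0.26). In both genes the 16-week samples were well above the 8-week ones. Elavl1 (HuR), which stabilises AU-rich mRNA, read 197 and 201 against 125 and 85.8 (-0.94 ± 0.29). Pspc1, a paraspeckle protein, read 29.2 and 23.5 against 13.8 and 8.7 (-1.02 ± 0.26). These 2 were lower without overlap. Rbm39, a U2AF-related splicing factor, read 130 and 131 against 98.1 and 64.8 (-0.71 ± 0.30). The branch point binding protein Sf1 read 27.4 and 37.5 against 9 and 22.7 (-0.95 ± 0.39). The cold-inducible RNA-binding protein Cirbp read 210 and 169 against 370 and 249 (0.69 ± 0.31). Luc7l, Smndc1 and Sart3 were higher, by 1.01, 0.68 and 0.66, while the kinase Clk4 and the snRNP assembly factor Smn1 gave -0.59 and -0.50. The IDs mark the Sf1 probe set as designed under relaxed rules and that of Sart3 as matching a family of sequences. Those of Clk4 and Smn1 are marked as having probes shared with other transcripts. Groups did not overlap for 29 of the 62 (46.8%), close to the share of members read the same way (45.1%) and of all tested probe sets (49.3%).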

How the data were processed

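Per the labels, 4 samples of total RNA from gastric mucosa were hybridised to Affymetrix mouse U74 arrays. The table holds the authors' deposited intensity per probe set; how it was computed or scaled is not stated in the sources used. Column means after trimming 2% at each end lay within 4.66% of their average, so the deposited scale was kept. Leaving out controls, 12422 probe sets remained, of which 10833 carried 1 gene symbol in the platform annotation, which can be old, 396 several and 1193 none. No genome or sequence was used.

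Values under the floor (the median over arrays of the 40th percentile, 12.15) were set to it and log2 was taken. The 7883 probe sets above it on at least 2 arrays were tested with limma 3.58.1 (R 4.3.3; lmFit, eBayes; 2-sided; Benjamini-Hochberg over all of them; threshold 0.05). The smallest 2-sided p that exact permutation of 2 against 2 samples allows is 0.333, so all p-values depend on limma pooling the spread over probe sets. The number of arrays limits the precision. The script was tested on simulated data. Alternatives changed the scaling, floor, filter, offset, replicate block and probe sets, and left out each sample.

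Members with the smallest p (12 per direction, groups apart), the 2 brightest per class, genes with probe sets of opposite sign and, of the other RNA processing list, 6 per direction were to be named; other members were chosen by role after their values were seen. Members and lists were chosen with earlier results of these data known.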

Additional observations from a re-analysis of the deposited data

How the results depend on the processing

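No member passed limma's test under any of the 14 alternatives run. Without the filter on dim probe sets 22 probe sets passed over the whole array, none a member; 17 of them had a group wholly under the floor. With the arrays on the hybridisation controls the members' median was 0.45, with 72 members higher, and 53 genes of the other RNA processing list were higher. With only probe sets above the floor on all 4 arrays, which leaves 67 members, 26 were higher. Without the probe sets that had a group wholly under the floor, an alternative chosen after seeing the data, 36 of 83 members were higher and the median was -0.07. With a sample left out the members' median ranged from -0.18 to 0.05, 33 to 48 members were higher, and 23 to 34 genes of the other list. The 24 members named for the smallest p kept their sign under the scaling alternatives, except Hnrnpm on the hybridisation controls. These 24 were picked among members whose groups do not overlap. Leaving out a sample or changing the floor, filter, offset, replicate block or probe sets could therefore not turn their sign. With the replicate number as a block 0 probe sets and 0 members passed, and 7 members against 6 had an unadjusted p under 0.05. Differences between samples 1 and 2 correlated at -0.05 between the groups over 7883 probe sets, so the numbers were not taken to pair samples. Dim probe sets near the floor limit what can be measured: 28 members were not tested.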
